A study of Mus musculus with 13 samples.

Results

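Tmie and the genes of the store-operated calcium entry machinery were followed in CD4 single-positive (CD4SP) thymocytes that had been selected with or without cathepsin L in the thymic epithelium. The 9 genes were Tmie, both STIM genes (Stim1 and Stim2), the 3 ORAI genes (Orai1, Orai2 and Orai3) and the 3 inositol trisphosphate (IP3) receptor genes (Itpr1, Itpr2 and Itpr3), out of 35906 genes with a transcript in the deposited tables, of which 22297 had at least 1 estimated count. Tmie was selected on its genotype difference in unstimulated cells, whereas the other 8 genes were taken as whole families by their function. All 9 passed the filter on low counts, both in the 9 unstimulated libraries and in all 13 libraries.

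The cells came from Lm54 Rag1-/- mice, which carry 1 transgenic T cell receptor (TCR) and cannot rearrange another. In the CtslΔTEC mice a conditional Ctsl allele was deleted by a Foxn1-driven Cre, which acts in thymic epithelial cells and not in the sequenced thymocytes; the controls, called Ctsl+/+ here, are labelled Ctsl fl/fl (WT). Mature M2 CD4SP cells (CD69- MHCI+) were sorted, 1 library per mouse, and either lysed directly (5 CtslΔTEC and 4 Ctsl+/+ mice) or first cultured for 4 h on plate-bound LLO:I-Ab monomer at 1 µg/ml with soluble anti-CD28 at 250 ng/ml (2 CtslΔTEC and 2 Ctsl+/+ mice). By the titles, the stimulated libraries came from other mice than the unstimulated ones, although mouse numbers in several names of deposited files differ from the titles, which are followed here. In addition, no library was cultured without stimulus, so stimulation, culture and the date in the name of the deposited file cannot be told apart. The labels give no age.

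Store-operated calcium entry is the main route by which a T cell raises its calcium after the TCR is engaged. Phospholipase C produces IP3, IP3 receptors then release calcium from the endoplasmic reticulum, STIM proteins sense the emptied store, and they open ORAI channels in the plasma membrane through which calcium enters and activates the calcineurin-NFAT pathway. TMIE is a small transmembrane protein best known as part of the mechanotransduction channel complex of inner ear hair cells.

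Library depth ranged from 25692380 to 39127833 estimated counts in the unstimulated and from 8085463 to 27184520 in the stimulated libraries, the lowest being Ctsl+/+ mouse 5. Cd4 was high in every library, and the summed level of 8 CD4 T cell markers ran from 4991 to 5779 CPM (estimated counts scaled to the TMM-adjusted library size) in unstimulated cells. Of 8 thymic epithelium markers, 4 (Foxn1, Krt5, Krt8 and Aire) stayed under 1 CPM in every library. The list summed to 63.3 to 138 CPM in unstimulated Ctsl+/+, 52.6 to 95.9 CPM in unstimulated CtslΔTEC and 49.5 to 64.0 CPM in stimulated libraries, most of it Ly75 (35.5 to 131 CPM); Prss16 was lower (0.46-fold, adjusted p = 0.0016, edgeR) and Epcam higher (1.71-fold, adjusted p = 0.047) in unstimulated CtslΔTEC cells, while 5 of 5 B cell markers stayed under 1 CPM in every library. The 7 myeloid markers summed to 11.8 to 18.3 CPM in unstimulated Ctsl+/+, 10.7 to 13.2 CPM in unstimulated CtslΔTEC and 7.22 to 24.7 CPM in stimulated libraries; in unstimulated CtslΔTEC cells 1 was higher (Csf1r) and 2 lower (Itgam, 0.59-fold, and Fcgr3, 0.33-fold). The 6 erythroid markers summed to 50.0 to 92.9 CPM, 43.2 to 174 CPM and 2.71 to 18.8 CPM in the same order; none of the 5 tested passed between the genotypes in either state, and 5 of 5 fell on stimulation in both. Of 4 regulatory T cell markers, Il2ra (4.00-fold, adjusted p = 6.8e-05) and Ctla4 (3.16-fold, adjusted p = 0.019) were higher and Ikzf2 lower (0.61-fold, adjusted p = 0.0086, edgeR) in unstimulated CtslΔTEC cells, whereas Foxp3 did not pass and stayed at or under 1.15 CPM; their sum was 9.07 to 15.7 CPM, 19.9 to 24.2 CPM and 704 to 832 CPM, most of the last being Il2ra, which activated T cells also express. The part of these lists in the results was not tested. Of 9 double-positive thymocyte markers, 8 were tested in unstimulated cells and 6 were higher in CtslΔTEC cells and 0 lower, where 6.42% of all genes tested were called higher and 8.36% lower; their summed level was 365 to 456 CPM in Ctsl+/+ and 623 to 769 CPM in CtslΔTEC libraries. In stimulated cells 9 double-positive markers were tested, and 3 were higher and 1 lower in CtslΔTEC cells, beside 2.77% and 10.6% of all genes. For the interaction of genotype and stimulation 0 were higher and 3 lower, beside 1.13% and 4.88%. Transcripts of 4 Y-linked genes exceeded 100 CPM in 5 of 5 CtslΔTEC but in 1 of 4 Ctsl+/+ unstimulated libraries, and in 1 of 2 stimulated libraries of each genotype, so that sex and genotype largely went together without stimulation. Ctsl itself was low and 1.80-fold higher in unstimulated CtslΔTEC cells (11.4 to 17.9 CPM against 6.31 to 8.84 CPM in Ctsl+/+ cells; adjusted p = 0.0044, edgeR), which does not check the labels, since the deletion was made in other cells. Counts assigned to retained-intron transcripts, a sign of unspliced RNA, made up 5.13% to 5.77% of unstimulated Ctsl+/+ and 5.59% to 6.59% of unstimulated CtslΔTEC libraries, and 5.995% and 7.63% against 7.94% and 8.55% after stimulation. The genotypes overlapped without stimulation, and both stimulated CtslΔTEC libraries were above all others. In bulk RNA, a change in the fraction of cells that express a gene and a change in RNA per cell cannot be told apart.

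On a log scale Tmie showed the widest spread of the 9 genes over the groups. In unstimulated Ctsl+/+ cells its level was 45.7, 27.2, 48.4 and 46.0 CPM in mice 1 to 4, and in unstimulated CtslΔTEC cells 184, 139, 153, 170 and 165 CPM in mice 1 to 5. Every CtslΔTEC library was above every Ctsl+/+ library, and Ctsl+/+ mouse 2 lay below the other controls. The fitted log2 difference was 1.96 ± 0.16 (SE), a 3.88-fold higher level, and 41 of 13152 genes had a larger one; since Tmie was selected on this contrast, these values are a description and carry no test. With the Y-linked level as a covariate the log2 difference was 1.76 ± 0.28 (SE), and without Ctsl+/+ mouse 2 it was 1.80. The double-positive markers named above moved in the same direction, led by the CD8 chains (Cd8b1 4.65-fold and Cd8a 6.71-fold higher), and their part in the Tmie difference was not tested.

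After stimulation Tmie measured 4.37 and 2.87 CPM in Ctsl+/+ mice 5 and 6, and 3.88 and 7.15 CPM in CtslΔTEC mice 6 and 7. All 4 stimulated libraries lay far below the unstimulated libraries of either genotype, and the genotypes overlapped. The fitted log2 differences to unstimulated cells were -3.64 ± 0.30 (SE) in Ctsl+/+ and -4.84 ± 0.29 (SE) in CtslΔTEC cells, which are 12.4-fold and 28.7-fold lower levels, given with no test because the unstimulated libraries had served to select the gene. The genotype difference among stimulated cells, which the selection had not used, was 0.75 ± 0.35 (SE) on the log2 scale and did not pass the threshold (adjusted p = 0.22, edgeR quasi-likelihood test). These libraries held only 33 and 74 estimated Tmie counts in Ctsl+/+ and 43 and 113 in CtslΔTEC cells, and the difference ran from 0.19 without CtslΔTEC mouse 7 to 1.08 without CtslΔTEC mouse 6.

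The share of the main Tmie transcript overlapped between the genotypes in unstimulated cells. There Tmie-201, which encodes the 153-residue protein, held 70.5% ± 0.81 (SD, n = 4) of the gene's TPM (a level per transcript length) in Ctsl+/+ and 69.7% ± 2.17 (SD, n = 5) in CtslΔTEC cells; the rest was split between the non-coding Tmie-202 and the retained-intron transcript Tmie-203. In stimulated cells Tmie-201 held 48.4% and 64.8% in Ctsl+/+ mice 5 and 6 and 71.8% and 69.2% in CtslΔTEC mice 6 and 7, and Tmie-202 held 51.6% in Ctsl+/+ mouse 5 and 0% in the other 3, on the few counts given above. Both non-coding transcripts were also higher in unstimulated CtslΔTEC cells, with mean levels of 18.7 and 17.2 TPM against 3.79 and 4.86 TPM. The gene lies on the minus strand of chromosome 9 (GRCm38, chr9:110865711-110880113) and its first exon shares 244 bases with the opposite-strand gene Als2cl, through the single transcript Als2cl-205. The study's methods name default settings and no strand option for the quantification, and the default of kallisto does not use strand, so reads from these bases could be assigned to either gene. Als2cl was itself higher in unstimulated CtslΔTEC cells (700 ± 57.6 CPM, SD, n = 4, against 1034 ± 64.4 CPM, SD, n = 5; log2 difference 0.56 ± 0.07 (SE), adjusted p = 5.3e-04, edgeR) and fell on stimulation in both genotypes. Tmie-202 and Tmie-203 share no exon base with it.

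The 250 bases before the RefSeq start of Tmie (GRCm38.p6, chr9:110880074-110880323, minus strand, 74.8% G or C) are shown because this stretch also holds the start of Als2cl, which is transcribed the other way. Capitals mark the 100 bases between the Tmie start and the first base of Als2cl-201.
Tmie: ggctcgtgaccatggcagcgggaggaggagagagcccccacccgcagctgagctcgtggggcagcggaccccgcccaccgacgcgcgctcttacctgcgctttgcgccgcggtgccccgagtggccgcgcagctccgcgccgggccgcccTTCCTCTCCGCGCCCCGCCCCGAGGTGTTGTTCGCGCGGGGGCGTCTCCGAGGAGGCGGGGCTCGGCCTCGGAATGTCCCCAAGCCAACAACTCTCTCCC
Of the 4 motifs searched on both strands (GGAAA, the core of NFAT sites; TGANTCA of AP-1; the E-box CACGTG; and TGACG, the core of the cyclic AMP response element), this window held none. Over all 32851 upstream windows of this length in the table, 55.6% held GGAAA, 6.75% TGANTCA, 6.02% CACGTG and 17.8% TGACG.

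Genes that followed Tmie most closely over all 13 libraries were Prrt1, Ramp1, Hs2st1, Eya2 and Fam169b, with Pearson r of 0.995, 0.993, 0.992, 0.989 and 0.988 on log2 CPM, among 10090 genes. Over the 9 unstimulated libraries they were Baiap3, Zscan18, Prrt1, Dntt and Lrig1 (r from 0.978 to 0.991, among 10177 genes). Prrt1 stood in both sets, with 6.65 CPM in unstimulated Ctsl+/+, 16.7 CPM in unstimulated CtslΔTEC and 1.21 and 1.24 CPM in the stimulated groups. Of the other 8 calcium entry genes, Itpr2 came nearest over 13 libraries (r = 0.937, rank 251) and Orai1 ran most against it (r = -0.921). Within unstimulated cells Itpr1 was close to the mirror of Tmie (r = -0.982, rank 10169). These correlations describe libraries that fall into separate groups, and they carry no p.

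**Figure D1:**
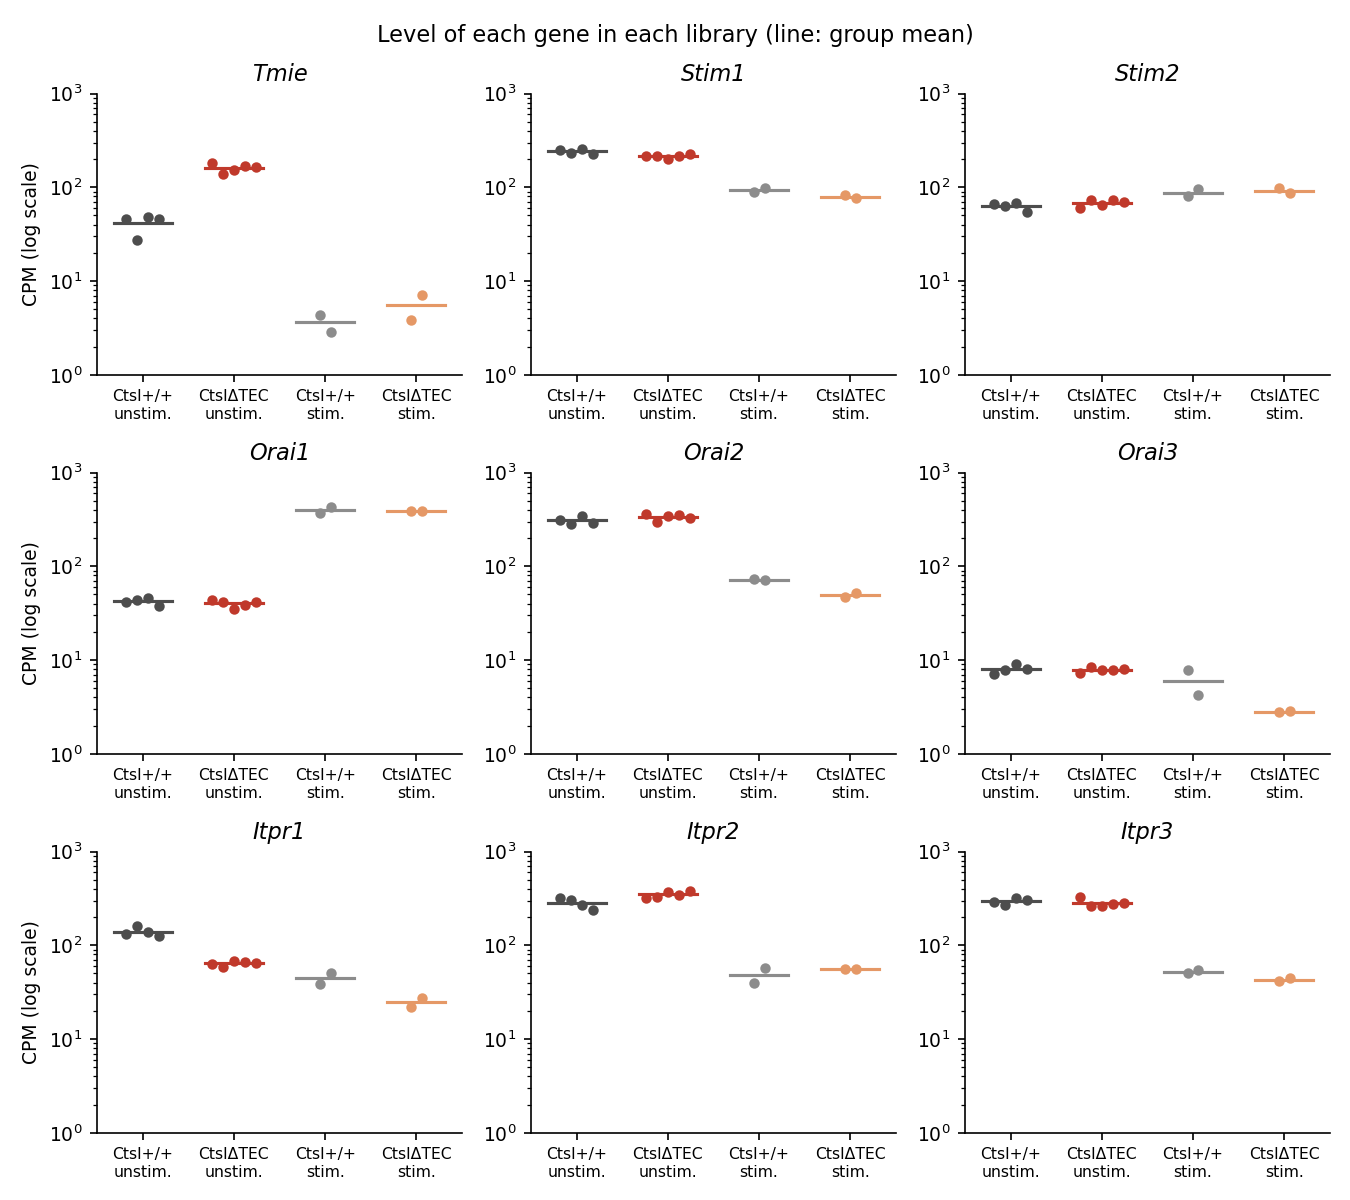
CPM of the 9 genes on a log axis, 1 point per library and 1 line per group mean, for Ctsl+/+ and CtslΔTEC cells with (stim.) and without (unstim.) stimulation. Tmie separates all 4 unstimulated Ctsl+/+ from all 5 CtslΔTEC libraries and is lowest in the 4 stimulated ones, Orai1 is the gene that is far higher after stimulation, and Itpr1 is lower in CtslΔTEC libraries in both states.

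Among the IP3 receptor genes, Itpr1 and Itpr2 differed in opposite directions in unstimulated cells. Of the 8 family genes tested there, 1 was higher and 1 lower in CtslΔTEC cells, where 6.42% of the 13152 genes tested were called higher and 8.36% lower. Itpr1, the receptor that prevails in neurons, measured 133, 162, 139 and 127 CPM in Ctsl+/+ mice 1 to 4 and 63.7, 59.2, 67.6, 66.0 and 64.1 CPM in CtslΔTEC mice 1 to 5. The lowest Ctsl+/+ library lay well above the highest CtslΔTEC library, and the log2 difference was -1.12 ± 0.08 (SE), a 2.18-fold lower level (adjusted p = 4.6e-06, edgeR). Itpr1 kept this call when any 1 library was left out (log2 differences from -1.17 to -1.05) and with the Y-linked level (-1.11, adjusted p = 0.0014) or the retained-intron share (-1.004, adjusted p = 6.1e-04) as a covariate.

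Itpr2 measured 320, 301, 271 and 236 CPM in Ctsl+/+ mice 1 to 4 and 323, 331, 370, 342 and 382 CPM in CtslΔTEC mice 1 to 5. The ranges almost touched, and the 1.24-fold higher level (log2 difference 0.31 ± 0.09 (SE), adjusted p = 0.052, edgeR) passed the 0.1 threshold narrowly. The call was lost with the Y-linked covariate (log2 difference 0.36, adjusted p = 0.43) and with the retained-intron covariate (0.36, adjusted p = 0.22), and leaving out 1 library at a time gave adjusted p from 0.034 to 0.13. Itpr3 did not pass (log2 difference -0.07 ± 0.08 (SE), adjusted p = 0.67), with 268 to 318 CPM in Ctsl+/+ and 261 to 326 CPM in CtslΔTEC libraries.

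Read per length, the IP3 receptor pool had nearly the same size but another make-up. The 3 genes summed to 120 ± 8.69 TPM (SD, n = 4) in Ctsl+/+ and 113 ± 6.88 TPM (SD, n = 5) in CtslΔTEC unstimulated cells. Itpr1 made up 31.2% ± 2.0 (SD) of this sum in Ctsl+/+ and 15.8% ± 0.92 (SD) in CtslΔTEC cells, while Itpr2 made up 32.8% ± 2.55 (SD) and 46.3% ± 2.87 (SD). The shares of neither gene overlapped between the genotypes, whereas those of Itpr3 did (36.0% and 37.9%). Much of the Itpr1 TPM lay in short transcripts: in Ctsl+/+ cells Itpr1-206 (939 bases) held 30.2% and Itpr1-207 (454 bases) 11.6%. In CtslΔTEC cells these shares were 24.2% and 14.6%. Itpr3-201 (8990 bases) held 99.7% and 99.3% of Itpr3. The Itpr1 shares, the pool sums and the place of Itpr1 by TPM therefore rest partly on the assignment to short transcripts.

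STIM and ORAI genes did not pass the threshold between the genotypes in unstimulated cells. Stim1, the main calcium sensor of the store in T cells, came closest: it ran from 229 to 259 CPM in Ctsl+/+ and from 202 to 224 CPM in CtslΔTEC libraries, which did not overlap, with a log2 difference of -0.17 ± 0.06 (SE, adjusted p = 0.101, edgeR); it passed with DESeq2 (adjusted p = 0.038) and with the file date as a factor (adjusted p = 0.078). Orai1, the pore-forming subunit that T cells depend on, differed by -0.06 on the log2 scale (95% interval -0.23 to 0.10), Orai2 by 0.13 (-0.02 to 0.28), Orai3 by -0.02 (-0.22 to 0.18) and Stim2 by 0.11 (-0.05 to 0.28).

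The order of the levels per length was led in unstimulated Ctsl+/+ cells by Orai2 (124 ± 11.5 TPM, SD, n = 4) and Stim1 (102 ± 11.9 TPM). Itpr3, Orai1, Itpr2, Itpr1 and Tmie followed with means from 43.2 down to 29.3 TPM, each overlapping its neighbour in range; Stim2 (20.5 TPM) overlapped Tmie, and Orai3 (5.82 TPM) stood apart as the lowest. In unstimulated CtslΔTEC cells Tmie stood second at 118 ± 12.9 TPM (SD, n = 5), in a range that overlapped Orai2 above and Stim1 below, and Itpr1 stood eighth at 17.8 ± 0.94 TPM, outside the ranges of both neighbours. In stimulated cells Orai1 led by far, at 368 ± 65.7 TPM (SD, n = 2) in Ctsl+/+ and 357 ± 0.096 TPM (SD, n = 2) in CtslΔTEC cells, and Tmie and Orai3 were the lowest, with mean levels of 2.95 and 3.90 TPM in Ctsl+/+ and 3.56 and 1.82 TPM in CtslΔTEC cells.

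All 8 family genes passed the threshold between stimulated and unstimulated cells in both genotypes in the main fit. The calls of Orai3 in Ctsl+/+ cells and of Stim2 in CtslΔTEC cells depended on the setting, as given below. In each genotype 2 rose (Orai1 and Stim2) and 6 fell (Stim1, Orai2, Orai3, Itpr1, Itpr2 and Itpr3), beside a background of 32.9% of 14241 genes called higher and 34.8% lower in Ctsl+/+ cells, and 32.9% higher and 38.2% lower in CtslΔTEC cells. Activation was visible in the marker genes as well: 6 of 6 listed activation genes rose in each genotype. The log2 differences of the 8 genes ran from -2.52 (Itpr2) to 3.24 (Orai1) in Ctsl+/+ cells. In CtslΔTEC cells they ran from -2.765 (Orai2) to 3.26 (Orai1). The medians over all genes tested were 0.01 and -0.06.

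Orai1 rose the most. It went from 41.9, 43.3, 45.7 and 37.5 CPM in unstimulated Ctsl+/+ mice to 371 and 427 CPM in the stimulated ones, and from 44.2, 41.8, 35.2, 38.5 and 41.4 CPM to 385 and 386 CPM in CtslΔTEC mice. No stimulated library came near an unstimulated one. The increase was 9.48-fold in Ctsl+/+ (log2 difference 3.24 ± 0.10 (SE), adjusted p = 3.4e-12, edgeR) and 9.58-fold in CtslΔTEC cells (3.26 ± 0.09 (SE), adjusted p = 8.9e-13); 344 and 335 of 14241 genes had a larger one. The difference between these responses was 0.02 on the log2 scale (95% interval -0.27 to 0.30, adjusted p = 0.99). Stim2, a sensor that responds to small losses of store calcium, rose 1.40-fold and 1.35-fold (adjusted p = 0.0018 and 0.0028, edgeR).

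Orai1 lies on the plus strand of chromosome 5 (GRCm38, chr5:123015074-123030456). Its 250 upstream bases (GRCm38.p6, chr5:123014824-123015073, 70.8% G or C) are shown because it was the only ORAI gene that rose; capitals mark the single TGACG match, read on the opposite strand, and the other 3 motifs were absent from this window.
Orai1: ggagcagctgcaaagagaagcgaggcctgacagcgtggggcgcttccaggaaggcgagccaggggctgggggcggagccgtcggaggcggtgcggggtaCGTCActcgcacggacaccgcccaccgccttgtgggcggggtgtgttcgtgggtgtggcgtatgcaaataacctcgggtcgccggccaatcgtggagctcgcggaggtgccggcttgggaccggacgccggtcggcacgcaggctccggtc

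Orai2, which forms channels together with ORAI1 and lowers their current, fell in both genotypes and further in CtslΔTEC cells. Unstimulated levels were 312, 285, 342 and 291 CPM in Ctsl+/+ and 359, 300, 341, 350 and 331 CPM in CtslΔTEC mice; stimulated levels were 72.3 and 71.8 CPM and 47.5 and 51.3 CPM. The genotypes overlapped before stimulation and not after it. The fall was 4.27-fold in Ctsl+/+ and 6.80-fold in CtslΔTEC cells (adjusted p = 3.4e-10 and 1.7e-11, edgeR), and these responses differed by -0.67 ± 0.14 (SE) on the log2 scale (adjusted p = 0.017, interaction term). Leaving out 1 library at a time gave interaction values from -0.74 to -0.60, with adjusted p from 0.016 to 0.097.

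The 250 bases upstream of Orai2 (GRCm38.p6, chr5:136170657-136170906, minus strand, 63.6% G or C) are shown against those of Orai1, which moved the other way. Capitals mark 2 CACGTG matches, a motif absent from the Orai1 window; the second overlaps a TGACG match, and 1 GGAAA lies near the end.
Orai2: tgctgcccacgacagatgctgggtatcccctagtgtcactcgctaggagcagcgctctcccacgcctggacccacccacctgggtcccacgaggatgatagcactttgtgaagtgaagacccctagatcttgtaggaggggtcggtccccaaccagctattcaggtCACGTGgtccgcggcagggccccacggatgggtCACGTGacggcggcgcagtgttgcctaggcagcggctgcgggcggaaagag
CACGTG was also found once upstream of Itpr3 and in none of the other 5 windows that were read; 8 of the 9 genes had an entry in the table, Itpr1 being the exception.

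Orai3 was the rarest of the 9 genes in unstimulated cells and rested on few reads after stimulation. Its levels were 7.13, 7.75, 9.11 and 7.997 CPM in unstimulated Ctsl+/+ and 7.18, 8.47, 7.89, 7.91 and 8.01 CPM in unstimulated CtslΔTEC mice, against 7.81 and 4.19 CPM and 2.80 and 2.85 CPM after stimulation. Ctsl+/+ mouse 5 stayed within the unstimulated range, and both CtslΔTEC libraries lay below every other library. These stimulated libraries held 59, 108, 31 and 45 estimated counts. The fall was 1.39-fold in Ctsl+/+ (adjusted p = 0.058) and 2.79-fold in CtslΔTEC cells (adjusted p = 2.6e-05, edgeR), with an interaction of -1.003 ± 0.30 (SE) on the log2 scale (adjusted p = 0.083). The interaction call was lost in 10 of 13 fits that left out 1 library (adjusted p from 0.0057 to 0.35): without Ctsl+/+ mouse 5 the value was -0.56, and without Ctsl+/+ mouse 6 the response in Ctsl+/+ cells was -0.05 on the log2 scale (adjusted p = 0.88). That response also lost its call without Ctsl+/+ mouse 3 (-0.41, adjusted p = 0.12).

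The remaining genes fell in both genotypes. Stim1 fell 2.59-fold in Ctsl+/+ and 2.72-fold in CtslΔTEC cells, Itpr1 3.13-fold and 2.61-fold, Itpr2 5.74-fold and 6.24-fold and Itpr3 5.63-fold and 6.50-fold (adjusted p from 3.7e-11 to 2.1e-07 over these falls, edgeR). None of these 4 passed the threshold for a difference in response between the genotypes (interaction from -0.21 to 0.27 on the log2 scale, adjusted p from 0.52 to 0.86). Over the interaction term, 2 of 8 genes were called, both lower (Orai2 and Orai3), beside 4.88% of all genes called lower and 1.13% called higher.

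**Figure D2:**
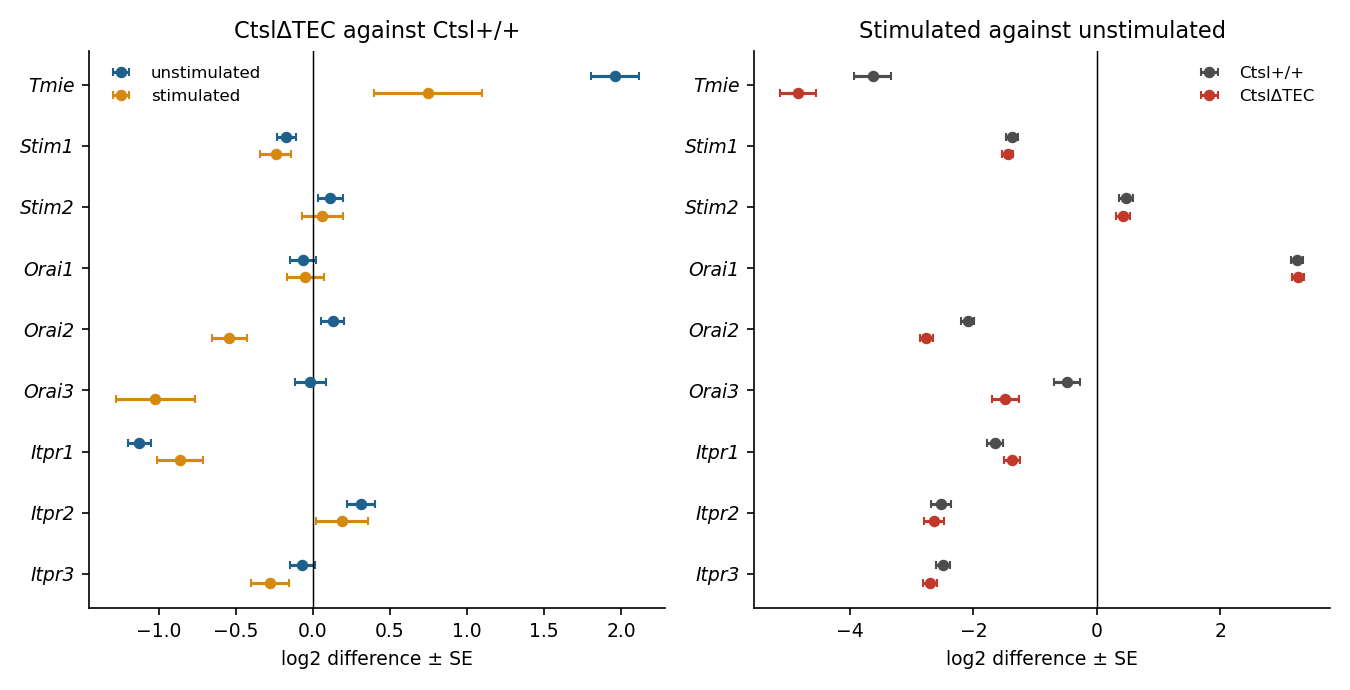
Fitted log2 differences with their SE for the 9 genes: on the left CtslΔTEC against Ctsl+/+ cells in each state, on the right stimulated against unstimulated cells in each genotype. Itpr1 lies below 0 in both states on the left, at -1.12 and -0.86, and Orai1 lies above 3 in both genotypes on the right while Tmie has the most negative values.

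Among stimulated cells, 3 of the 9 genes were lower in CtslΔTEC than in Ctsl+/+ cells and 0 were higher, beside 10.6% of 14241 genes called lower and 2.77% called higher. Itpr1 remained lower, with 38.7 and 50.1 CPM in Ctsl+/+ against 21.9 and 27.1 CPM in CtslΔTEC mice (log2 difference -0.86 ± 0.15 (SE), adjusted p = 0.0026, edgeR). Orai2 was 1.46-fold lower (adjusted p = 0.0083) and Orai3 2.03-fold lower (adjusted p = 0.022). Leaving out 1 stimulated library at a time kept the calls of Itpr1 and Orai2, whereas Orai3 lost it in 3 of 4 such fits (adjusted p up to 0.18). With the retained-intron covariate Itpr1 (adjusted p = 0.017) and Orai2 (0.067) passed and Orai3 (0.32) did not. Stim1, Stim2, Orai1, Itpr2 and Itpr3 did not pass (adjusted p from 0.16 to 0.87). Of 6 listed activation genes 0 were higher and 1 lower, Il2, a cytokine gene controlled by NFAT, at 54.4 and 50.7 CPM in Ctsl+/+ against 3.07 and 5.75 CPM in CtslΔTEC mice (adjusted p = 5.9e-05, edgeR). The other 5 activation genes (Cd69, Nr4a1, Egr2, Myc and Il2ra) lay in the other direction, at 1.12-fold to 1.26-fold. None of them passed the threshold (adjusted p from 0.36 to 0.745, edgeR). With 2 libraries per group, the comparison of stimulated cells takes much of its spread from the unstimulated groups.

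Summed per length, the ORAI pool of stimulated cells was larger and almost wholly Orai1. It went from 172 ± 15.1 TPM (SD, n = 4) to 351 and 446 TPM in Ctsl+/+ cells and from 187 ± 12.04 TPM (SD, n = 5) to 377 TPM in both CtslΔTEC libraries. Orai1 made up 24.5% ± 1.24 (SD) and 21.8% ± 1.64 (SD) of it before stimulation, and 91.7% and 93.0% (Ctsl+/+) and 94.7% and 94.7% (CtslΔTEC) after it, while Orai2 went from 72.1% and 75.0% to 6.65% and 4.84% on average. The STIM pool went from 122 and 117 TPM to 64.7 and 69.3 TPM, and the share of Stim2 in it from 16.8% ± 1.62 (SD) and 19.8% ± 2.03 (SD) to 41.3% and 45.8%. The IP3 receptor pool went from 120 and 113 TPM to 29.2 and 23.3 TPM.

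**Figure D3:**
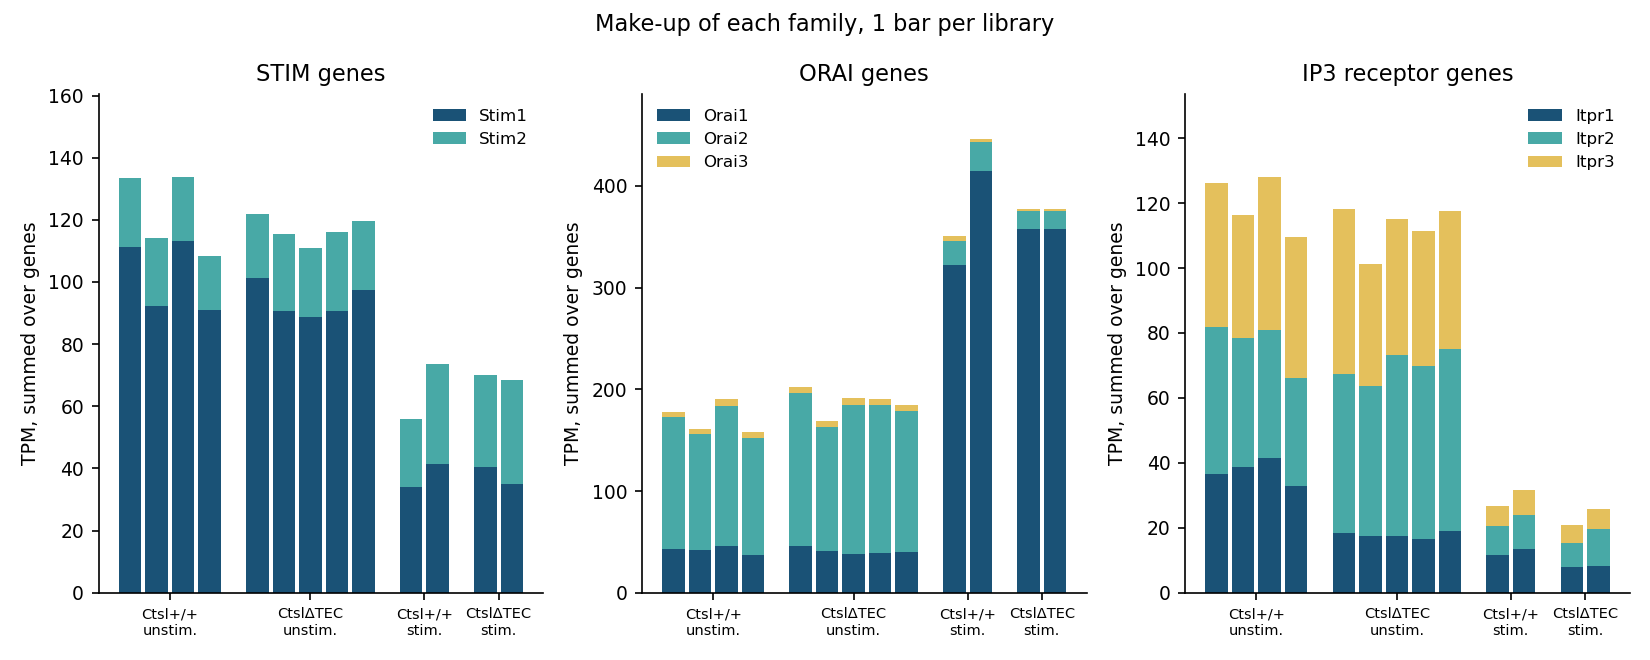
TPM of the STIM, ORAI and IP3 receptor genes stacked by gene, 1 bar per library, grouped by genotype and stimulation. Orai1 makes up 91.7% to 94.7% of the ORAI bar in the 4 stimulated libraries, and the Itpr1 part of the IP3 receptor bar is smaller in all 5 CtslΔTEC than in all 4 Ctsl+/+ unstimulated libraries.

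Transcript proportions differed with stimulation in several of the genes, in values given here as a description. Orai2-201, which encodes a 250-residue protein, held 65.8% ± 1.76 (SD, n = 4) and 64.7% ± 2.77 (SD, n = 5) of the gene's TPM in unstimulated Ctsl+/+ and CtslΔTEC cells, and 50.9%, 49.3%, 21.1% and 54.2% in the stimulated Ctsl+/+ mice 5 and 6 and CtslΔTEC mice 6 and 7. Orai2-202, with a longer coding sequence of 264 residues, went from 14.9% ± 0.70 (SD) and 14.6% ± 1.25 (SD) to 30.8%, 27.2%, 51.8% and 27.7%. All 4 stimulated libraries lay outside the unstimulated range of either transcript. For Orai3, the transcript with a shortened 136-residue coding sequence (Orai3-203) went from 23.6% ± 6.99 (SD) and 19.1% ± 9.40 (SD) to 40.4%, 68.1%, 56.4% and 100%, at the expense of the 290-residue Orai3-201. In these libraries the whole gene had at most 108 estimated counts. Orai1-201 and Orai1-202, which encode the same 304 residues, held similar shares in both states (68.7% and 25.7% in unstimulated, 65.2% and 28.3% in stimulated Ctsl+/+ cells), and Itpr3-201 held 99.3% or more of Itpr3 in each group on average. Stim1-201, which encodes 685 residues, held 66.7% to 78.8% in the 9 unstimulated libraries, 67.2% and 71.0% in stimulated Ctsl+/+ and 52.7% and 54.4% in stimulated CtslΔTEC mice. Itpr2-202, with 2668 residues, held 52.1% to 62.0% without stimulation, 30.5% and 39.4% in stimulated Ctsl+/+ mice 5 and 6 and 58.7% and 32.9% in CtslΔTEC mice 6 and 7. The short Itpr2-210, with a 191-residue coding sequence, held at most 5.92% without stimulation and 47.2%, 16.5%, 0% and 17.2% after it, in the same order. Itpr1 was spread over 5 transcripts of at least 10% in some group, with shares in stimulated libraries as far apart as 0% and 34.9% for Itpr1-207, and Stim2-201 ran from 61.9% to 81.6% without and from 49.9% to 72.4% with stimulation.

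**Figure D4:**
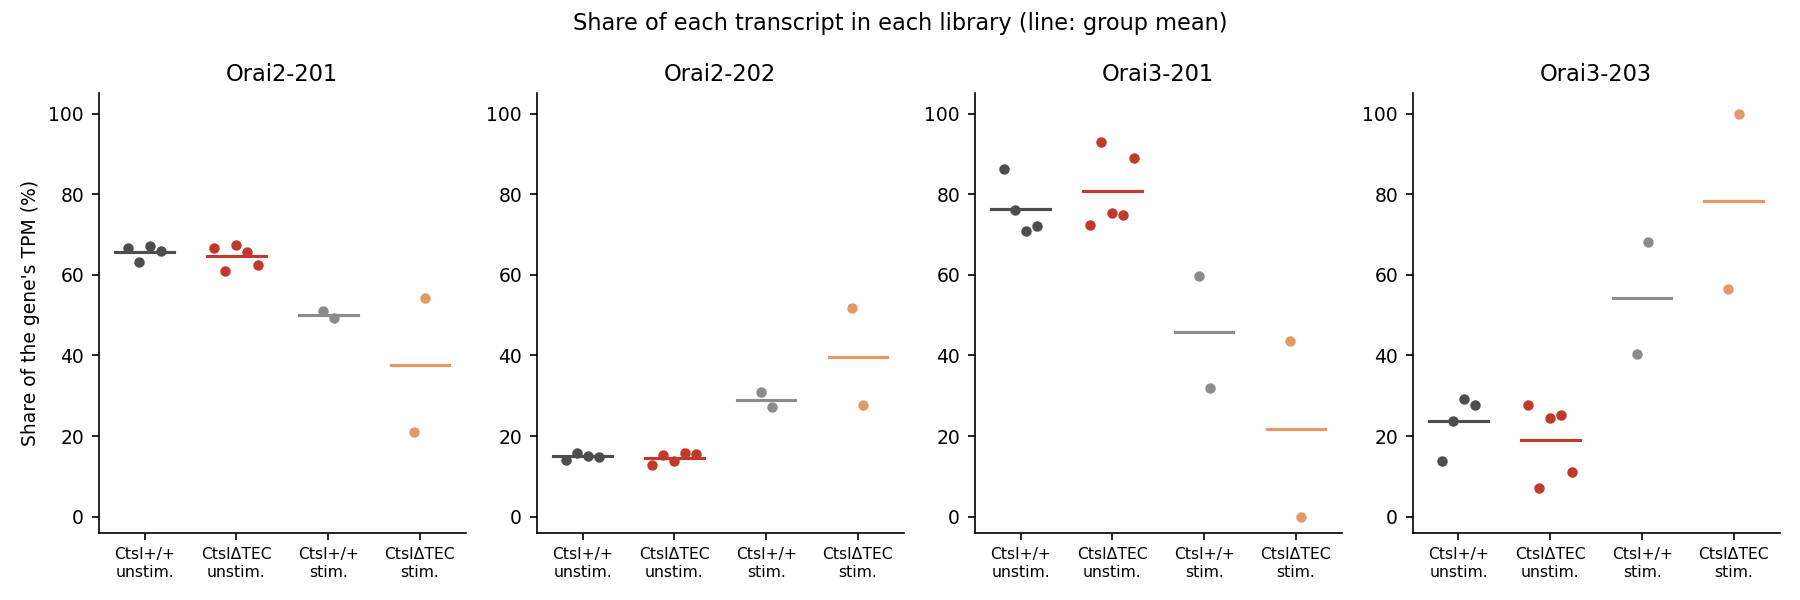
Share of the gene's TPM held by transcripts Orai2-201, Orai2-202, Orai3-201 and Orai3-203, 1 point per library and 1 line per group mean. The share of Orai2-202 lies between 27.2% and 51.8% in the 4 stimulated libraries, above all 9 unstimulated ones, and the Orai3 shares scatter widely after stimulation.

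Genes around the store-operated route were read from lists chosen by function. In unstimulated cells the median log2 difference between genotypes was -0.08 for regulators of STIM and ORAI, -0.04 for IP3 receptor partners, -0.02 for IP3 production and breakdown, 0.01 for pumps and exchangers, -0.09 for mitochondrial uptake and -0.09 for other channels, beside 0.01 over all genes tested. The medians of the response, in the same order, were -0.38, 0.25, -0.16, 1.02, 0.14 and 0.23 in Ctsl+/+ and -1.01, 0.25, -0.42, 0.41, 0.64 and 0.04 in CtslΔTEC cells. Calls of single list genes below come from the main fit alone. In unstimulated cells, where sex largely went with genotype, the Y-linked covariate lowered the calls over all genes from 1943 to 429. The retained-intron covariate lowered them to 689. Which list genes keep their call with these covariates is not given.

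Of 10 regulators of STIM and ORAI, 8 were tested, and 0 were higher and 2 lower in unstimulated CtslΔTEC cells: Esyt1, which tethers the endoplasmic reticulum to the plasma membrane (0.79-fold, adjusted p = 0.0046, edgeR), and Saraf, which switches the entry off again (0.81-fold, adjusted p = 0.024). Over all genes tested 6.42% were called higher and 8.36% lower in this comparison. In stimulated cells Tmem110, which promotes STIM1 conformational activation at membrane junctions, was 0.59-fold (adjusted p = 0.0021) and Esyt1 0.71-fold (adjusted p = 0.032), again with 0 higher (background 2.77% higher and 10.6% lower). Tmem110 was 22.2 and 20.7 CPM in stimulated Ctsl+/+ and 12.2 and 13.2 CPM in stimulated CtslΔTEC mice, and its responses differed between the genotypes (interaction -0.76 ± 0.15 (SE), adjusted p = 0.015). On stimulation Saraf fell to 0.23-fold in Ctsl+/+ and 0.29-fold in CtslΔTEC cells and Cracr2a, a calcium-binding partner of ORAI1, to 0.33-fold and 0.25-fold, while Zdhhc6, a palmitoyl transferase, rose 2.05-fold and 1.998-fold. In all, 1 of the 8 rose and 3 fell in Ctsl+/+, and 1 rose and 5 fell in CtslΔTEC cells, beside 32.9% of all genes called higher in each genotype and 34.8% and 38.2% called lower.

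Of 15 partners of the IP3 receptors, 13 were tested and 2 were higher in unstimulated CtslΔTEC cells, Tespa1 (1.30-fold, adjusted p = 0.026, edgeR) and Lrmp (1.23-fold, adjusted p = 0.048), both of which bind IP3 receptors in lymphocytes; 0 were lower (background 6.42% higher and 8.36% lower). The same pair was higher in stimulated CtslΔTEC cells, by 1.74-fold (adjusted p = 0.012) and 1.34-fold (adjusted p = 0.052), where 2.77% of all genes were called higher. Tespa1 stood at 198 and 302 CPM in stimulated Ctsl+/+ and at 453 and 418 CPM in stimulated CtslΔTEC mice, against 76.8 to 92.5 CPM and 94.0 to 132 CPM without stimulation. On stimulation 7 of the 13 partners rose and 6 fell in Ctsl+/+, and 7 rose and 5 fell in CtslΔTEC cells (background 32.9% higher in each, 34.8% and 38.2% lower). Mrvi1 fell most among the named ones, to 0.10-fold and 0.14-fold. It was low, at 4.46 to 5.47 CPM in unstimulated Ctsl+/+ and 5.69 to 6.64 CPM in unstimulated CtslΔTEC libraries. Its stimulated values were near the floor, with 0.26 and 0.62 CPM in Ctsl+/+ and 1.17 and 0.57 CPM in CtslΔTEC mice. Ahcyl1, which competes with IP3 for the receptor, rose 1.91-fold in Ctsl+/+ and 1.85-fold in CtslΔTEC cells. Erlin1, part of a complex that marks active IP3 receptors for degradation, rose 2.84-fold in Ctsl+/+ and 3.70-fold in CtslΔTEC cells (interaction adjusted p = 0.38), and Itprip fell to 0.33-fold and 0.35-fold.

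Of 10 genes that make or remove IP3, 8 were tested in unstimulated cells with 1 higher (Inpp5a, an IP3 phosphatase, 1.27-fold, adjusted p = 0.041, edgeR) and 0 lower, and 9 in stimulated cells with 1 higher (Plcb4, 1.95-fold, adjusted p = 0.056). The shares over all genes called higher were 6.42% and 2.77%, so single calls are near the background. On stimulation the IP3 kinase Itpkc rose 3.81-fold and 3.88-fold, and Plcg1, the phospholipase that acts below the TCR, fell to 0.47-fold and 0.45-fold in Ctsl+/+ and CtslΔTEC cells.

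Among the pumps and exchangers that clear calcium, 2 of 7 tested were lower and 0 higher in unstimulated CtslΔTEC cells: Atp2a3, a pump that refills the store (0.82-fold, adjusted p = 0.028, edgeR), and the mitochondrial exchanger Slc8b1 (0.74-fold, adjusted p = 0.053), beside 8.36% of all genes called lower and 6.42% called higher. In stimulated cells 1 of 9 was higher, the plasma membrane pump Atp2b1 (1.54-fold, adjusted p = 0.083; background 2.77% higher). On stimulation 4 of 9 rose and 2 fell in each genotype, close to the 32.9% of all genes called higher and the 34.8% and 38.2% called lower, with Atp2a2 up 2.23-fold and 2.26-fold and Atp2b1 up 2.54-fold and 3.60-fold.

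Of 8 mitochondrial uptake genes, 3 were lower and 0 higher in unstimulated CtslΔTEC cells, beside 8.36% and 6.42% of all genes. The 3 lower genes included Mcub, an inhibitory uniporter subunit (0.47-fold, adjusted p = 6.9e-04, edgeR). It responded differently to stimulation in the genotypes (interaction 1.72 on the log2 scale, adjusted p = 0.026). Its level was low, at 2.81 to 3.33 CPM in unstimulated Ctsl+/+ and 1.19 to 1.57 CPM in unstimulated CtslΔTEC libraries. After stimulation the genotypes overlapped, with 1.19 and 2.64 CPM in Ctsl+/+ and 2.62 and 3.67 CPM in CtslΔTEC mice. The pore gene Mcu rose 2.50-fold in Ctsl+/+ and 2.96-fold in CtslΔTEC cells.

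Of 18 other calcium and potassium channels, 13 were tested in unstimulated cells, with 1 higher and 3 lower in CtslΔTEC cells (background 6.42% higher and 8.36% lower). Kcna3, the potassium channel that keeps up the driving force for calcium entry, was 1.51-fold higher (adjusted p = 0.0044, edgeR), and Piezo1, a mechanically gated channel, was lower in unstimulated (0.70-fold, adjusted p = 0.0023) and in stimulated cells (0.55-fold, adjusted p = 0.0024). Piezo1 rose on stimulation in both genotypes, 4.47-fold and 3.49-fold.

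Most of the listed partners of TMIE in hair cells were nearly absent, Myo7a and Cdh23 being exceptions. Of 10 listed genes, 4 were tested, and Tmc1, Tmc2, Lhfpl5, Pcdh15 and Cib2 each stayed under 1 CPM in every library. Myo7a was 0.73-fold in unstimulated CtslΔTEC cells (adjusted p = 0.085, edgeR) and fell on stimulation in both genotypes, whereas Cdh23, a tip link cadherin, rose 7.92-fold and 10.3-fold, to between 10.3 and 15.5 CPM.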

How the data were processed

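RNA from sorted thymocytes was quantified by the authors with kallisto 0.48 against Ensembl mouse transcripts, and per the file headers each library's table gives an estimated count and a TPM for every transcript. Their methods name default settings and no strand option, which in kallisto means that strand is not used, and the labels name polyA RNA whereas the study's methods describe rRNA depletion. The deposited estimated counts and TPM were summed over each gene's transcripts with the GENCODE vM21 annotation (GRCm38); 116397 of 117497 transcripts were paired with a gene, and at most 0.461% of a library's counts stayed unpaired. Groups were taken from the titles and genotype labels.

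Summed estimated counts were rounded, filtered with filterByExpr and fitted with edgeR 4.0.16 (R 4.3.3; TMM factors, quasi-likelihood F test, adjustment by Benjamini-Hochberg over all genes tested, threshold 0.1). The unstimulated comparison used 9 libraries, and the other comparisons used a 4-group model of all 13. SE is the log2 difference divided by the square root of F, and 95% intervals are the difference ± 1.96 SE. CPM carries the TMM factors of the 13-library fit and compares a gene between libraries, whereas TPM compares genes. Likeness to Tmie is Pearson r on log2 CPM (prior count 2, mean of at least 1). Named genes were the 9 members, in each list and comparison up to 2 genes per direction with the smallest adjusted p, and transcripts with a mean share of at least 10% in a group; the values of single marker genes, Il2 and Als2cl, the levels of Tespa1 and Tmem110 by library and the promoter motifs were added after the data had been seen. The members and lists were chosen with earlier results of these data known. The fits were tested on simulated data. Alternatives were DESeq2 1.42.0, other scalings and filters, a length offset, coding transcripts alone, covariates, blocks and leaving out each mouse. Mouse numbers are those of the titles, from which several names of deposited files differ, and they did not pair the samples. Each library is 1 mouse. Promoter windows came from RefSeq (GRCm38.p6), the stretch after the start being left out; gene coordinates are GENCODE's and not those of the authors' build. The values of 1 gene that the rule would name are not reported here.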

Additional observations from a re-analysis of the deposited data

Results flagged for a closer look

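Of 40 sets of values examined (log2 CPM and family shares in the 2 unstimulated groups), 2 held a library that stood apart from the rest of its group by Dixon's criterion; chance gives about 1 in 20. Tmie in Ctsl+/+ mouse 2 was 4.77 log2 CPM, with 0.899 of the group's range between it and the next library. Itpr3 made up 42.9% of the IP3 receptor TPM in CtslΔTEC mouse 1, with 0.832 of the range below it.

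The response to stimulation differed between the genotypes, by the interaction term of the edgeR model, for Orai2 (-0.67 on the log2 scale, adjusted p = 0.017) and Orai3 (-1.003, adjusted p = 0.083). Both genes fell further in CtslΔTEC cells.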

How the results depend on the processing

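The number of genes called in unstimulated cells (1943) was 429 with the Y-linked covariate, 689 with the retained-intron covariate and 1051 with the replicate block, and at the upper end 2299 with DESeq2 and 2710 with the file date as a factor; each of the first 3, and the second date alone, left 1 member called in place of 2, as Itpr2 was lost and Itpr1 kept. The mouse numbers in the titles do not pair the samples (correlations of deviations from -0.155 to 0.347), and a block could not be fitted among stimulated mice, which share 1 number. With library totals alone, 1163 of 2048 calls were higher (56.8%, against 43.4%), and the median of all genes in the CtslΔTEC response moved from -0.06 to -0.21. Among stimulated cells 1898 calls became 1127 in the 4 stimulated libraries alone and 756 with the retained-intron covariate, a share that differed between these groups. For the interaction 1 member was called with DESeq2 size factors, the Y-linked or the retained-intron covariate.

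Leaving out 1 mouse gave 1 to 2 members called in unstimulated cells and for the interaction, 945 (without CtslΔTEC mouse 6) to 2235 (without Ctsl+/+ mouse 6) genes among stimulated cells, and 334 to 1227 genes for the interaction, without the same mice.

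Values that had not passed the threshold changed sign in places. In unstimulated cells these were Stim2 (-0.0080) and Orai2 (-0.019) with the Y-linked covariate, and Orai3 (0.030 with library totals, 0.013 with coding transcripts, 0.028 at the second date; -0.068 to 0.050 without 1 mouse). In stimulated cells they were Stim2 (-0.074 with the retained-intron covariate; -0.063 to 0.19), Orai1 (0.0016 in the 4 libraries alone; -0.16 to 0.051) and Itpr2 (-0.071 with the length offset; -0.049 to 0.50, where it passed without Ctsl+/+ mouse 6). For the interaction they were Stim1 (0.14 with the length offset; -0.15 to 0.015), Stim2 (0.021 with the Y-linked covariate, 0.093 with the length offset; -0.17 to 0.078), Orai1 (-0.036 with library totals, -0.11 with the retained-intron covariate; -0.089 to 0.12) and Itpr2 (-0.36 to 0.19). The cause was not tested.

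Orai3 lost its stimulated call in the 4 libraries alone (adjusted p = 0.17) and with the retained-intron covariate (0.32), which also ended its response in Ctsl+/+ cells (0.66) and that of Stim2 in CtslΔTEC cells (0.44). Orai1, Itpr1, Itpr2, Itpr3, Stim1 and Orai2 kept their responses to stimulation under every alternative run. Low estimated counts limit Tmie and Orai3 after stimulation.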
